A study of Mus musculus with 8 samples.

Results

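The 56 genes described here encode the Wnt signalling pathway, from its ligands to the transcription factors at its end: 19 Wnt ligands, 12 Frizzled and Lrp receptors, 9 genes of the R-spondin arm, 8 secreted inhibitors and 8 intracellular regulators. They were chosen by name, and the CpGs counted as theirs lay inside the annotated gene or within 5 kb of either end. DNA methylation was read by reduced representation bisulfite sequencing (RRBS), in which a restriction digest enriches CpG-rich DNA and bisulfite treatment tells methylated from unmethylated cytosines. Every library covered 441994 autosomal CpGs with 10 reads or more, and 2685 of them belonged to 54 of the 56 genes; Wnt16 and Fzd6 had none. These CpGs formed 189 of the 36513 tiles of 1 kb that held at least 3 CpGs. The cells came from kidneys of E17.5 embryos, sired by CD1 males with the Tg(Six2-EGFP/cre) transgene and carried by wild-type CD1 dams, both parents being 8 to 10 weeks old. In the calorie-restricted group (CRD, 4 libraries) the pregnant dams were fed once a day with 70% of the mean intake, and in the unrestricted group (URD, 4 libraries) food was not limited. Every embryo of both groups carried 1 copy of the transgene, in which Six2 regulatory DNA drives a green fluorescent Cre, and fluorescent nephron progenitors were sorted from embryos of both sexes. Whether 1 library stands for an embryo, a litter or pooled litters is not given, and p-values here therefore reflect the spread among libraries, which may be technical.

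Wnt proteins are secreted ligands that bind a Frizzled receptor and an Lrp co-receptor, which stops the destruction complex of Axin and Apc from degrading beta-catenin, the product of Ctnnb1. Beta-catenin then enters the nucleus and acts with the Tcf and Lef factors on target genes, while R-spondins raise and Dkk, Sfrp and related proteins lower the strength of the signal. In the embryonic kidney, Wnt9b from the ureteric bud acts on the nephron progenitors around it, and Wnt4 made by these cells drives their change into an epithelium. CpG-rich gene starts are unmethylated in most tissues, and CpGs inside long genes are usually methylated.

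Read totals over CpG cytosines ran from 16045992 to 32054622 in CRD libraries and from 20863822 to 37305007 in URD libraries, and the median shared CpG had 20 to 39 reads in CRD libraries and 26 to 44 reads in URD libraries. Reads of CRD libraries 1 and 2 leaned towards unmethylated CpGs: weighting CpGs by reads in place of equally lowered the mean level by 2.24 and 3.28 percentage points, whereas the shift in the other 6 libraries lay between -0.575 and 0.817 points. Mitochondrial CpGs read as 0.0242 to 0.0854% methylated in CRD libraries and 0.0221 to 0.0695% in URD libraries. Many gene-end levels below are of this size, and how much of them is background was not tested. The gene ends of nephron progenitor markers, measured in 4 of 8 genes, averaged 0.0593 ± 0.0387% in CRD libraries and 0.0404 ± 0.011% in URD libraries (SD, n = 4 each), and those of stromal markers, measured in 4 of 5 genes, averaged 1.05 ± 0.328% in CRD libraries and 1.32 ± 0.314% in URD libraries. Ends of ureteric bud markers, measured in 2 of 6 genes, averaged 0.0767% in CRD and 0.0802% in URD libraries. Those of endothelial markers (1 of 6 genes) averaged 0.242 and 0.315%, and those of podocyte markers (3 of 5 genes) 0.302 and 0.431%, in the same order. Low methylation of a CpG-rich gene end does not by itself mark expression, so these values are no check of cell identity.

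Sequence was available for the annotated starts of 38 of the 56 genes (RefSeq, GRCm38.p6, 250 bases before to 50 bases after the start). These 38 starts were rich in CpGs, with a median of 29 CpGs in 300 bases and 70% G and C, against 7 CpGs and 52.7% over all 27025 starts in the table. The sequence CCGG, which the RRBS enzyme MspI cuts, was present in 35 of the 38 (92.1%) and in 52.6% of all starts. The Tcf/Lef core, searched as CTTTGAT or CTTTGAA on both strands, was present at 2 of the 38 starts (5.26%), those of Wnt11 and Dkk1, and at 8.77% of all starts. These counts take 1 start per gene, and the inner start of Wnt5b printed below also holds CTTTGAT. A match or its absence in these 300 bases says nothing of binding. The sequences below show the starts of kidney genes whose measured CpGs carry the main pattern of these data, unmethylated starts, and 2 starts of Wnt5b that differed in level. They are written 5′ to 3′ on the strand of the gene, with each CpG that had at least 10 reads in all 8 libraries in capitals.
Wnt9b, chr11:103749772-103750071, minus strand: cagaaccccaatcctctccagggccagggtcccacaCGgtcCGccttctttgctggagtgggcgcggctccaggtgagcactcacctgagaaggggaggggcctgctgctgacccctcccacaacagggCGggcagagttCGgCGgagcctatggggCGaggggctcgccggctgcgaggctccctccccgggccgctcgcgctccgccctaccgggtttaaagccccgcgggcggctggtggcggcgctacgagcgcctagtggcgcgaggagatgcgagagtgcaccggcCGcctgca
Wnt11, chr7:98834862-98835161, plus strand: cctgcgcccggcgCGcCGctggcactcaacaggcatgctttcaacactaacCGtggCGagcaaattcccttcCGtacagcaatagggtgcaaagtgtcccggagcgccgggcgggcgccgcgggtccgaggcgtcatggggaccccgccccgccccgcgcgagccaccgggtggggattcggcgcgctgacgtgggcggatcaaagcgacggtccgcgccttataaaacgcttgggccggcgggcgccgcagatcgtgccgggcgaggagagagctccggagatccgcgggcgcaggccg
Ctnnb1, chr9:120933328-120933627, plus strand: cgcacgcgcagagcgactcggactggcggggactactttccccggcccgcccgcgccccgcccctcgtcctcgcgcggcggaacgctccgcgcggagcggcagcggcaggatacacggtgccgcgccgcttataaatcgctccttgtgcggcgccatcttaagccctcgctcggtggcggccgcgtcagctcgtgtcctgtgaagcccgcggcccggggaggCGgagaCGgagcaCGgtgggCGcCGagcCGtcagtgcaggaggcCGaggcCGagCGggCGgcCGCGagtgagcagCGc
Tcf7l1, chr6:72788996-72789295, minus strand: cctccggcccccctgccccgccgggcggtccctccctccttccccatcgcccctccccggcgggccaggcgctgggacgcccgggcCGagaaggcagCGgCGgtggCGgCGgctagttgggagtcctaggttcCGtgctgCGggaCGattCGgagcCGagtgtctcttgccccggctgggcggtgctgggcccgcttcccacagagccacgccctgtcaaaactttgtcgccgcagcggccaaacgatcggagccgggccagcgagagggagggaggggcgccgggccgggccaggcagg
Wnt5b, outer start, chr6:119544298-119544597, minus strand: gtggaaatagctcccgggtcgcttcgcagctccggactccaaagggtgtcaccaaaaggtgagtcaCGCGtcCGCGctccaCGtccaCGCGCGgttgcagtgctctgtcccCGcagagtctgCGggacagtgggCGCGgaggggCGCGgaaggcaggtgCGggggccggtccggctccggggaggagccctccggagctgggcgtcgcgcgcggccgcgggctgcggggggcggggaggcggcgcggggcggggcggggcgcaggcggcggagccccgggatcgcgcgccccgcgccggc
Wnt5b, inner start, chr6:119449337-119449636, minus strand: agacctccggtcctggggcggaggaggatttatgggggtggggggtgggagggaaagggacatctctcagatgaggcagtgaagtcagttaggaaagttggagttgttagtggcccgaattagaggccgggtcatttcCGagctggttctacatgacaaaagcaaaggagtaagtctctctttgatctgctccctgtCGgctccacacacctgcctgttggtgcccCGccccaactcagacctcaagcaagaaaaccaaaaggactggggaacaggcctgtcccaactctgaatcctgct

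Almost all measured CpGs in these windows were unmethylated. The 7 CpGs of the Wnt9b start averaged 0.248% methylation over the 8 libraries, the 5 of Wnt11 0.0532%, the 13 of Ctnnb1 0.0192% and the 10 of Tcf7l1 0.0481%. Ctnnb1 and Wnt11 have further annotated starts. The Ctnnb1 start used for counts and windows, at chr9:120933400, had 0 measured CpGs in its 300 bases, so another was printed. A second Wnt11 start averaged 0.34% over 13 measured CpGs. Wnt5b, a ligand known mainly from signalling that does not pass through beta-catenin, has several annotated starts. Its outer start, with 47 CpGs in 300 bases, averaged 0.121% over 15 measured CpGs. Its inner start, with 7 CpGs in 300 bases, averaged 9.72% over 3 measured CpGs, and this level rested on the CpG at base 139 of the printed sequence. That CpG was at 15, 20, 28.9 and 35.5% in CRD libraries 1 to 4, against 25, 28.9, 35.3 and 21.6% in URD libraries 1 to 4, so the diets overlapped. The CpGs at bases 198 and 227 averaged 0.961 and 1.92% over the 8 libraries.

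The profile around gene starts took 1 annotated start per gene, where a start could be placed, and left out further starts such as the inner start of Wnt5b. Methylation of the Wnt pathway genes was lowest in the first 500 bases after the start. There, 501 CpGs of 30 genes averaged 0.123 ± 0.078% in CRD libraries and 0.125 ± 0.0273% in URD libraries (SD, n = 4 each), while all genes of the table averaged 0.989 ± 0.0252% in CRD libraries and 1.01 ± 0.024% in URD libraries. From 1500 to 2000 bases after the start the pathway genes were still at 0.408 ± 0.0483% in CRD libraries and 0.441 ± 0.0784% in URD libraries, against 9.86 ± 0.0716% in CRD libraries and 9.96 ± 0.205% in URD libraries over all genes. In both diets the mean of the pathway genes was thus lower than that of all genes in these bins, a difference that was not tested. Bins before the start went either way. In the last 500 bases the pathway genes were lower, at 0.182% in CRD and 0.151% in URD libraries, against 0.957 and 0.992% over all genes. From 1500 to 1000 bases before the start they were higher, at 11.2% in CRD and 11.3% in URD libraries, against 7 and 7.04%. The bins differ in which genes contribute, so the profile describes sets of genes and not a course along each gene.

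**Figure D1:**
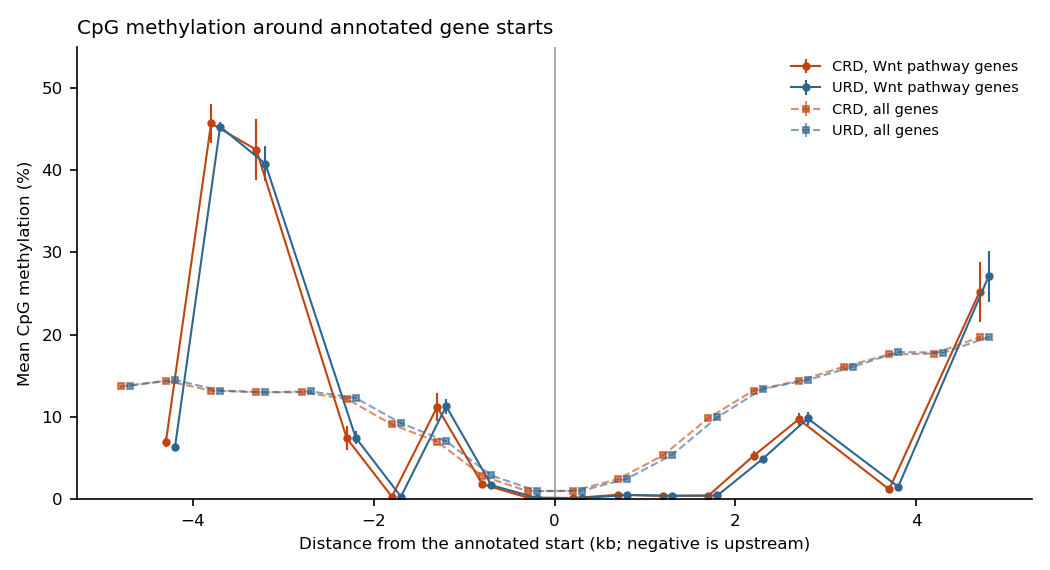
Mean CpG methylation (%) in 500-base bins by distance from the annotated start (kb), for CRD and URD libraries, over the Wnt pathway genes (solid lines) and all genes (dashed lines). Points are means of 4 libraries, bars their SD, and bins with fewer than 3 genes are left out; the curves of both diets lie on each other near the start, and the pathway genes stay near 0 as far as 2 kb into the gene.

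Levels were summarised in 2 regions of each gene. A gene-end window covered 1000 bases outside and 500 bases inside the gene at whichever end held more measured CpGs, and a gene body covered the gene without the 500 bases at either end. Each needed at least 3 CpGs, and a level is the mean of its CpGs, each CpG weighted equally. Both follow the outer bounds of the annotated gene, so in Axin2, Wnt9b, Wnt2 and Wnt6, for example, the annotated start lies inside the body. Bodies are therefore not free of CpGs near a start. Read counts of windows, bodies and tiles are sums over their CpGs, so a read that spans several CpGs counts once for each. Upper limits from 0 methylated reads treat these counts as separate reads and are too low where CpGs share reads. Gene ends were measured in 46 of the 56 genes and averaged 2.04 ± 0.119% in CRD libraries and 1.96 ± 0.169% in URD libraries (SD, n = 4 each), against 4.43 ± 0.0728% in CRD libraries and 4.5 ± 0.0666% in URD libraries over all genes. Of the 46 gene ends, 42 (91.3%) were below 5%, close to the 90.2% of all gene ends. Gene bodies, also measured in 46 genes, averaged 13.9 ± 0.18% in CRD libraries and 14 ± 0.252% in URD libraries, against 29 ± 0.235% in CRD libraries and 29.1 ± 0.18% in URD libraries over all genes. The body was above the end in 33 of the 38 genes with both values. Among tiles, 73.5% of those near pathway genes were below 5%, against 57% of all tiles, and 6.88% were at 80% or more, against 21.6% of all tiles. These genes were chosen by name for their function, and no test was made of their distance from other genes.

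The diets were compared by a logistic model of methylated reads in each unit, fitted to every unit of the genome and adjusted by Benjamini-Hochberg over all of them, with an adjusted p under 0.05 as a call. No tile, gene end, body or CpG of the 56 genes was called by this model, by limma or by edgeR. At gene ends, 0 of 45 tested were called where 0.0898% of all ends were, and 2 (4.44%) had an unadjusted p under 0.05, against 6.95% of all ends. In tiles, 0 of 180 were called where 0.0177% of all tiles were, and 12 (6.67%) had an unadjusted p under 0.05, 3 higher and 9 lower in CRD libraries, against 6.32% of all tiles, 1028 higher and 1113 lower. In bodies, 0 of 46 were called where 0.009% of all bodies were, and 9 (19.6%) had an unadjusted p under 0.05, 2 higher and 7 lower, against 11.1% of all bodies, 448 higher and 786 lower. Higher and lower in these counts follow levels with every CpG weighted equally, whereas the p comes from pooled reads. The Lef1 body, counted as higher, differed by 0.0379 points with CpGs weighted equally and by -3.33 points with pooled reads. Of single CpGs, 0 of 1018 were called where 0.0997% of all CpGs were, and 39 (3.83%) had an unadjusted p under 0.05, 23 higher and 16 lower, against 5.62% of all CpGs, 5541 higher and 5233 lower. Counts at an unadjusted p under 0.05 were 6 tiles, 2 ends, 3 bodies and 65 CpGs by limma, where the shares of all units were 6.41% of tiles, 6.84% of ends, 8.58% of bodies and 6.94% of CpGs. By edgeR they were 10 tiles, 1 end, 8 bodies and 21 CpGs, where the shares of all units were 5.59% of tiles, 4.6% of ends, 8.88% of bodies and 3.4% of CpGs. The lowest adjusted p of the model was 0.733 for tiles, 0.602 for ends, 0.145 for bodies and 0.622 for CpGs. The median difference, CRD minus URD, was 0.00952 points over the 180 tiles, against -0.00913 over all tiles, and 0.0163 points over the 46 bodies, against -0.017 over all bodies. It was 0.00198 points over the 45 gene ends, against -0.00526 over all ends, and -0.193 points over the 1018 CpGs, against -0.143 over all CpGs.

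**Figure D2:**
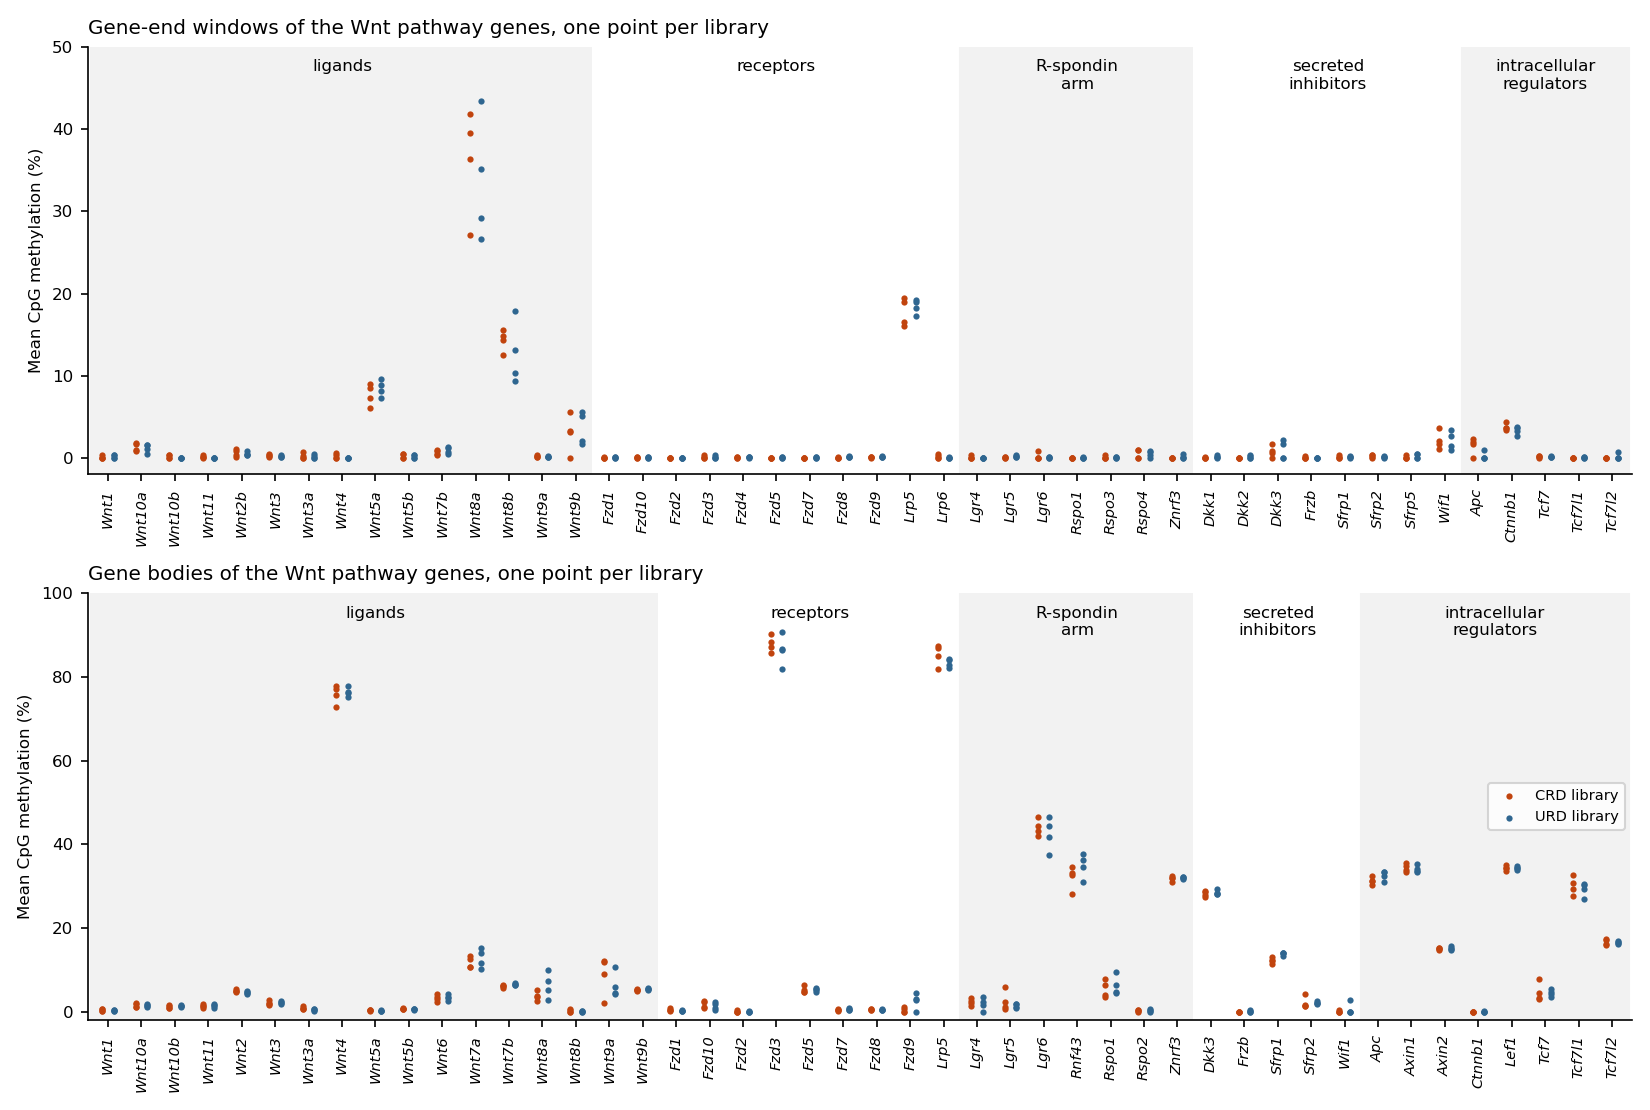
Mean CpG methylation (%) at the gene end (upper panel) and in the body (lower panel) of each Wnt pathway gene measured there, ordered by role, with CRD libraries left of URD libraries and 1 point per library. Most ends sit near 0 in all 8 libraries, Wnt8a, Lrp5, Wnt8b and Wnt5a stand above them in both diets, and bodies run from near 0 to above 80%.

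Among the ligands, 15 gene ends averaged 4.37 ± 0.361% in CRD libraries and 4.13 ± 0.556% in URD libraries, and 12 of the 15 were below 5%. Wnt4, the inducer of nephron epithelium, combined an unmethylated start with the most methylated ligand body. Its gene end was at 0, 0, 0.413 and 0.606% in CRD libraries and at 0 in all 4 URD libraries, where 1143 reads allow up to 0.262%. Its body was at 72.9, 77.1, 77.9 and 75.6% in CRD libraries 1 to 4, against 76.1, 77.8, 76.3 and 75.3% in URD libraries 1 to 4, and the diets overlapped. The tile inside it at chr4:137296001-137297000 averaged 90.7 ± 1.22% in CRD libraries and 92.5 ± 1.84% in URD libraries over 11 CpGs.

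Wnt9b showed why the end with more CpGs need not be the start. The window chosen by that rule was at the outer bound of its annotated gene, which lies inside Wnt3, and there 3 CpGs averaged 3.02 ± 2.29% in CRD libraries and 3.61 ± 2.02% in URD libraries. The window at the annotated start of Wnt9b held 37 CpGs and was at 0.158 ± 0.137% in CRD libraries and 0.307 ± 0.179% in URD libraries. The 3 tiles from chr11:103772001 to chr11:103775000 lie in the extended regions of both Wnt9b and Wnt3 and are counted once, so they are not separate evidence for these neighbours.

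Wnt11, made at the tips of the ureteric bud, had the gene end of smallest p. It was at 0.359, 0.126, 0.128 and 0% in CRD libraries 1 to 4 and at 0 in all 4 URD libraries, where 0 methylated of 2197 reads allow a level of up to 0.137%. Methylated reads thus appeared in 3 of the 4 CRD libraries and in no URD library, but the level was at most 0.359% in each. The difference of 0.153 points had an adjusted p of 0.602 in the logistic model and a p of 0.143 in a two-sided exact permutation test of the 8 library levels. Without CRD library 1 the difference was 0.0847 points. The tile behind it, chr7:98835001-98836000, averaged 0.177 ± 0.134% in CRD libraries and 0 in URD libraries (adjusted p = 0.76). Wnt10b, a ligand of the beta-catenin branch, was similar in form, with a gene end at 0.352, 0, 0 and 0.379% in CRD libraries and 0 in every URD library (adjusted p = 0.679). Its difference of 0.183 points was 0.117 points without CRD library 4.

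Wnt5a, which acts mostly without beta-catenin, had a border inside its window. The 5 CpGs outside the gene, at chr14:28503951-28504202, averaged 53, 20.9, 0.862, 9.36 and 16.4% in CRD libraries and 63.8, 20.2, 2.09, 14 and 10.7% in URD libraries, from the outermost inwards. The 8 CpGs inside the gene had no methylated read in any library. A count of 0 of 1775 reads, summed over these CpGs, gives a limit of 0.169%. These CpGs lie close together with nearly the same coverage, so they share reads and the true limit is higher. The whole window was at 7.73 ± 1.33% in CRD libraries and 8.52 ± 1.01% in URD libraries, with an adjusted p of 0.991. Wnt8a had the highest ligand end, 36.2 ± 6.49% in CRD libraries and 33.6 ± 7.46% in URD libraries, over 3 CpGs and 33 to 99 reads per library. Wnt8b had the next highest among ligands, at 14.3 ± 1.3% in CRD libraries and 12.7 ± 3.86% in URD libraries, but this window lay at its far end, and its body averaged 0.308 ± 0.356% in CRD libraries and 0.142 ± 0.13% in URD libraries.

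Wnt7b, the collecting duct ligand needed for the renal medulla, and Wnt2b, a ligand of the renal stroma, had gene ends of 0.651 ± 0.325 and 0.631 ± 0.435% in CRD libraries and 0.924 ± 0.385 and 0.502 ± 0.253% in URD libraries. Within Wnt7b, 9 tiles ranged from 0.116 to 86.9% over the 8 libraries. Wnt10a held the ligand tile of largest difference among the 10 tiles of smallest p, at chr1:74804001-74805000 with 3 CpGs. It was at 8.02, 3.95, 6.48 and 10.8% in CRD libraries 1 to 4, against 2.15, 5.06, 3.54 and 5.66% in URD libraries 1 to 4. CRD library 2 lay within the URD range, and the difference of 3.21 points had an adjusted p of 0.773. Without CRD library 4 it was 2.05 points. The other ligand ends, of Wnt1, Wnt3, Wnt3a, Wnt5b, Wnt9a and Wnt10a, averaged from 0.127% (Wnt1) to 1.27% (Wnt10a) over the 8 libraries. Wnt2 and Wnt6 had no gene end by the rule above, but the windows at their annotated starts were at 0.0372 ± 0.0744 and 0.183 ± 0.214% in CRD libraries and 0 and 0.145 ± 0.17% in URD libraries. Ligand bodies were low apart from Wnt4, with Wnt7a next at 11.9 ± 1.3% in CRD libraries and 12.9 ± 2.29% in URD libraries, and 11 of 17 below 5%.

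Of 11 receptor gene ends, 10 were below 5%, and Lrp5 was the exception. Fzd4 and Fzd8, both Frizzled receptors of the growing kidney, were at 0.0614 ± 0.048 and 0.0381 ± 0.0762% in CRD libraries and 0.0855 ± 0.0692 and 0.154 ± 0.0257% in URD libraries. Lrp6, a co-receptor of the beta-catenin branch, was at 0.192 ± 0.243% in CRD libraries and 0.0283 ± 0.0567% in URD libraries. Fzd2 had no methylated read at its end, with a limit of 0.862% from 348 reads in CRD libraries and of 0.658% from 456 reads in URD libraries. The ends of Fzd1, Fzd3, Fzd5, Fzd7 and Fzd10 averaged from 0.0248% (Fzd7) to 0.11% (Fzd3) over the 8 libraries.

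Lrp5, the co-receptor closest to Lrp6, had a window of 2 parts. Its 11 CpGs at chr19:3686341-3686413, inside the gene, had no methylated read in any CRD library, a limit of 0.225%, and at most 5.71% methylation at any of them in URD libraries 1 and 2. The 4 CpGs outside the gene, at chr19:3687365-3687533, averaged 73.8, 54.4, 78.8 and 60.3% in CRD libraries and 82.8, 55.2, 73.5 and 62.6% in URD libraries. The window level was 19.5, 16.6, 16.1 and 19% in CRD libraries 1 to 4, against 19, 18.3, 17.3 and 19.2% in URD libraries 1 to 4. The diets overlapped, and the difference of -0.648 points had a p of 0.543 in the exact permutation test. Leaving out 1 library at a time moved it between -1.22 points (without CRD library 1) and -0.0858 points (without CRD library 3), and the lowest adjusted p was 0.16, without CRD library 4. Pooling the reads of all 15 CpGs gave -4.22 points with an adjusted p of 0.679, and the 4 methylated CpGs took 12.3, 14.1, 27.4 and 31.2% of the reads in CRD libraries, against 23.2, 22.1, 37.7 and 23.7% in URD libraries.

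Fzd9 held the tile of smallest p near any of the 56 genes, chr5:135250001-135251000 with 35 CpGs. It was at 0.136, 0.0893, 0.102 and 0% in CRD libraries 1 to 4, against 0.0922, 0.495, 0.585 and 0.446% in URD libraries 1 to 4. URD library 1 lay among the CRD libraries, and the difference of -0.323 points had an adjusted p of 0.733 and an exact permutation p of 0.0857. Its gene end did not overlap between the diets, at 0.0924, 0.0665, 0 and 0.0734% in CRD libraries and 0.119, 0.227, 0.179 and 0.17% in URD libraries, as did 1.55% of all gene ends. That difference of -0.116 points had an adjusted p of 0.679, with a p of 0.0286 in the exact permutation test, its lower bound for 4 libraries against 4. No library was above 0.227% at this end, where mitochondrial CpGs read as up to 0.0854% methylated. The tiles of Fzd2 at chr11:102606001-102607000 and of Fzd5 at chr1:64734001-64735000, also among the 10 of smallest p, were at 0.29 ± 0.33 and 0.746 ± 0.496% in CRD libraries and 0.101 ± 0.149 and 1.51 ± 1.16% in URD libraries, each with an adjusted p of 0.773. The Fzd2 difference of 0.189 points was 0.04 points without CRD library 1, and the Fzd5 difference of -0.764 points lay between -1.18 points without URD library 1 and -0.328 points without URD library 2.

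Receptor bodies fell into 2 sets. Fzd3, a receptor of planar polarity signalling, and Lrp5, whose genes span 70023 and 101761 bases, had bodies at 87.8 ± 1.94 and 85.2 ± 2.5% in CRD libraries and 86.4 ± 3.68 and 83.3 ± 1.06% in URD libraries. The body of Fzd3 held only 3 CpGs. The other 7, all Frizzled genes of 2110 to 7193 bases, averaged between 0.138% (Fzd2) and 5.35% (Fzd5) over the 8 libraries. In Fzd5, a Frizzled receptor studied in eye and intestine, the body level came mainly from the tile chr1:64735001-64736000, at 30.4 ± 4.42% in CRD libraries and 30 ± 2.95% in URD libraries over 14 CpGs, while its other 3 tiles averaged between 0.0478 and 1.13%.

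**Figure D3:**
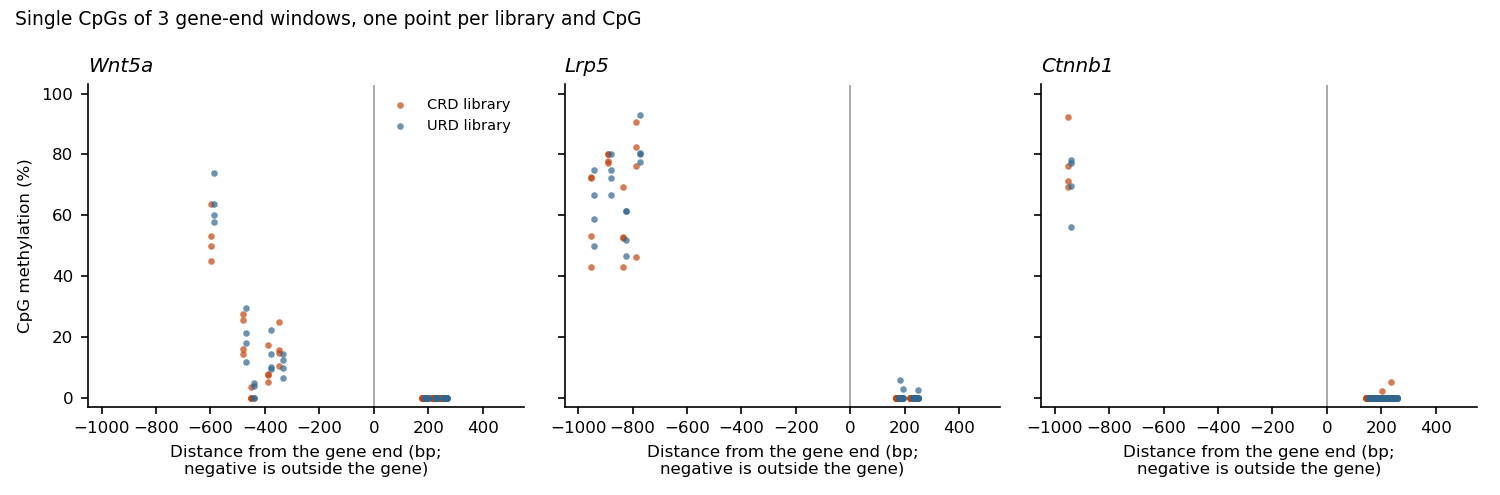
Methylation (%) of single CpGs by distance from the gene end (bases, negative outside the gene) in the gene-end windows of Wnt5a, Lrp5 and Ctnnb1, with 1 point per CpG and library and CRD drawn left of URD. In all 3 genes the CpGs inside the gene sit at or below 5.71% in every library, and the more methylated CpGs, at up to 93.1% in 1 library, lie outside it.

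In the R-spondin arm, the Rspo ligands and their Lgr receptors protect Frizzled proteins from the membrane ubiquitin ligases Znrf3 and Rnf43, which would otherwise remove them. All 7 gene ends measured were below 5%, and they averaged 0.137 ± 0.131% in CRD libraries and 0.145 ± 0.0476% in URD libraries. Rspo1 and Rspo3, R-spondins of the developing kidney, were at 0 and 0.0988 ± 0.163% in CRD libraries and 0.0365 ± 0.0731 and 0.0524 ± 0.0444% in URD libraries. Lgr4 and Lgr5 were at 0.0801 ± 0.16 and 0.0855 ± 0.0987% in CRD libraries and 0 and 0.233 ± 0.115% in URD libraries. Rspo4 had the highest end of the arm, 0.48 ± 0.555% in CRD libraries and 0.491 ± 0.372% in URD libraries. Lgr6 was at 0.217 ± 0.435% in CRD libraries and 0.0763 ± 0.0881% in URD libraries.

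Bodies of the arm averaged 17 ± 0.923% in CRD libraries and 17.1 ± 0.398% in URD libraries over 7 genes. The stem cell receptor Lgr6 and the ligases Rnf43 and Znrf3 were at 44 ± 1.91, 32.2 ± 2.82 and 31.9 ± 0.568% in CRD libraries and 42.6 ± 3.95, 34.9 ± 2.89 and 32 ± 0.246% in URD libraries, whereas Rspo1, Rspo2, Lgr4 and Lgr5 stayed between 0.334 and 5.92% over the 8 libraries. Within Rnf43, single CpGs ranged from 0 at chr11:87710065 to 96.2% at chr11:87713115. The Rnf43 body was at 33.2, 32.7, 34.7 and 28.2% in CRD libraries 1 to 4, against 34.6, 37.7, 36.2 and 31% in URD libraries 1 to 4, and the diets overlapped. The difference was -2.69 points with CpGs weighted equally and -7.57 points with pooled reads. The logistic model, which pools reads, gave an unadjusted p of 0.027 and an adjusted p of 0.384. In Znrf3, the tile at chr11:5282001-5283000 was at 96.3 ± 3.86% in CRD libraries and 95.6 ± 2.76% in URD libraries, while the gene end had 0 methylated of 3828 reads in CRD libraries, a limit of 0.0784%, and 0.127 ± 0.213% in URD libraries (adjusted p = 0.679). That difference of -0.127 points was -0.0211 points without URD library 3.

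The secreted inhibitors had gene ends below 5% in 8 of 8 genes, at 0.422 ± 0.0535% in CRD libraries and 0.479 ± 0.058% in URD libraries. Dkk1, which blocks the Lrp co-receptors, was at 0.0347 ± 0.0694% in CRD libraries and 0.159 ± 0.126% in URD libraries. Wif1, which binds Wnt proteins directly, was highest at 2.13 ± 1.09% in CRD libraries and 2.12 ± 1.14% in URD libraries, and its outermost CpG at chr10:121033024 averaged 18.8% over the 8 libraries. Dkk3, a distant Dkk relative, followed at 0.773 ± 0.688% in CRD libraries and 0.952 ± 1.12% in URD libraries. Upstream of Sfrp2, a secreted Frizzled relative, the tile chr3:83762001-83763000 was at 71.7 ± 1.95% in CRD libraries and 70.5 ± 1.49% in URD libraries, with the gene end at 0.192 ± 0.192% in CRD libraries and 0.108 ± 0.0843% in URD libraries. The ends of Dkk2, Sfrp1, Sfrp5 and Frzb averaged from 0.0282% (Frzb) to 0.158% (Sfrp5) over the 8 libraries.

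Sfrp1, a secreted decoy that competes with Frizzled receptors for Wnt proteins, gave the only tile of the 180 whose levels did not overlap between the diets, as 2.22% of all tiles did. The tile, chr8:23414001-23415000, lies inside the gene beyond its CpG-rich end and holds 5 CpGs. Its reads, summed over these CpGs, ran from 69 to 328 per library. It was at 51.4, 47.7, 50.8 and 55% in CRD libraries 1 to 4, against 57.6, 57.2, 59.2 and 56.5% in URD libraries 1 to 4. Every CRD library was below every URD library, with CRD library 4 and URD library 4 the closest. The difference of -6.37 points (51.2 ± 3% in CRD libraries and 57.6 ± 1.17% in URD libraries) had a p of 0.0286 in the exact permutation test, again its lower bound, and an adjusted p of 0.773, which ran from 0.725 to 0.939 over 17 alternative settings. All 5 CpGs had a lower mean in CRD libraries, from 39.4% against 49.1% in URD libraries at chr8:23414772 to 59.2% against 62.2% in URD libraries at chr8:23414827. They lie close together with nearly the same coverage and so share reads, and their common direction is not 5 separate results. The other 3 tiles of Sfrp1 averaged from 0.074 to 1.79% over the 8 libraries.

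The Sfrp1 body of 21 CpGs includes the 5 CpGs of this tile, and its other CpGs averaged at most 0.806% each. The body is therefore no separate evidence beside the tile. Its level was 12.4, 11.4, 12.1 and 13.1% in CRD libraries 1 to 4, against 14, 14.1, 14.1 and 13.4% in URD libraries 1 to 4. The body did not overlap between the diets, as 2.56% of all bodies did. The adjusted p was 0.265. Over the 5 inhibitor bodies the mean level was 8.66, 8.88, 8.37 and 8.4% in CRD libraries and 8.97, 8.98, 8.93 and 9.57% in URD libraries, a difference of -0.534 points to which Sfrp1, at -1.7 points, contributed most. Wif1 and Dkk3 differed by -0.623 and -0.254 points and Frzb, a further Frizzled decoy, by -0.218 points, while Sfrp2 differed by 0.125 points.

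**Figure D4:**
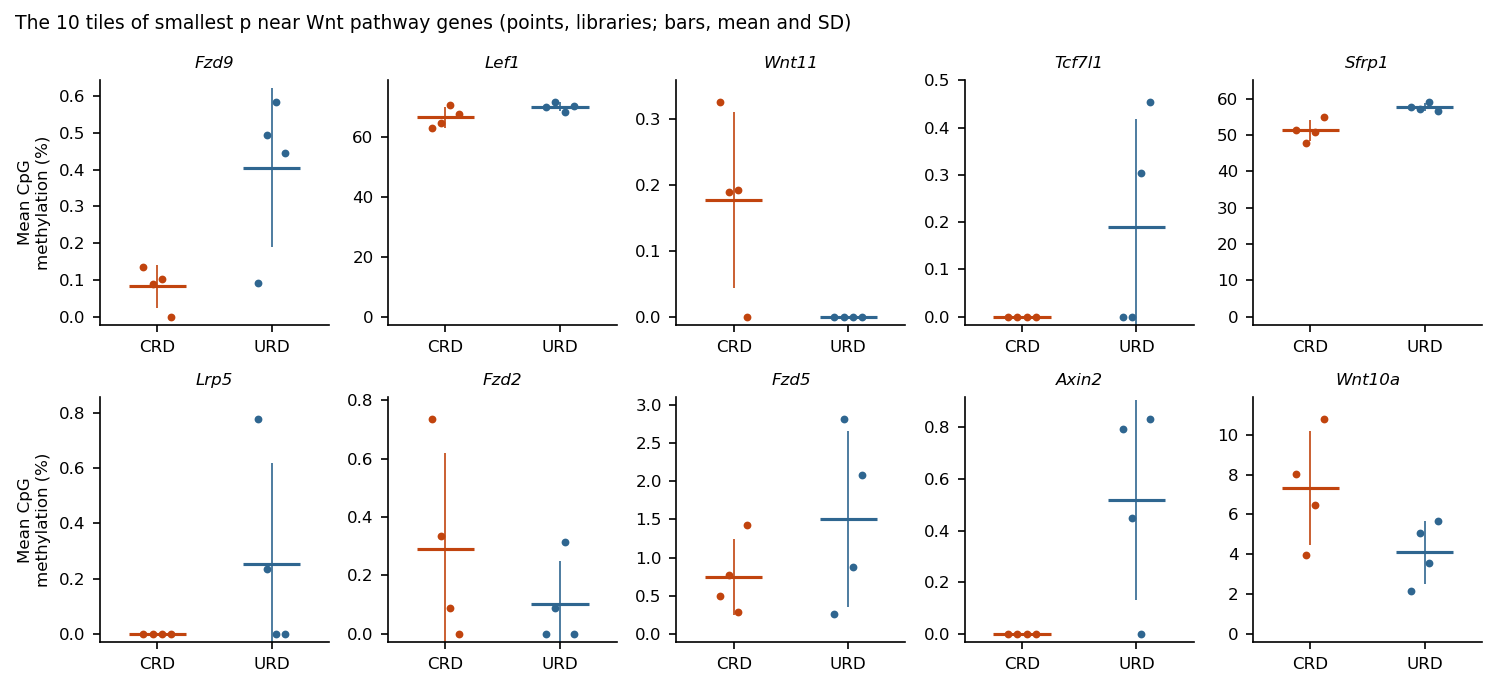
Mean CpG methylation (%) per library in the 10 tiles of smallest p near Wnt pathway genes, with CRD left of URD in each panel, horizontal bars at the mean and vertical bars for the SD of 4 libraries. The vertical scales differ between panels: 7 of the tiles lie below 3% in every library, and in Sfrp1 the CRD libraries, from 47.7 to 55%, all lie below the URD libraries, from 56.5 to 59.2%.

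Among the intracellular regulators, 5 gene ends averaged 1.08 ± 0.252% in CRD libraries and 0.794 ± 0.0737% in URD libraries. Ctnnb1 was highest, at 3.39, 4.4, 3.63 and 3.64% in CRD libraries 1 to 4, against 2.67, 3.71, 3.68 and 3.31% in URD libraries 1 to 4 (adjusted p = 0.975). This level came from 1 of 21 CpGs, at chr9:120932455 outside the gene, which was at 69.2, 92.3, 76.2 and 71.4% in CRD libraries and 56, 78, 77.3 and 69.6% in URD libraries. The other 20 CpGs, 13 of them in the sequence printed above, averaged at most 0.625% over the 8 libraries, and the body of Ctnnb1, at 0 in CRD libraries and 0.0579 ± 0.116% in URD libraries, was the lowest of the 46. That body held 9 CpGs, all in the tile chr9:120934001-120935000 near the start, in a gene of 27108 bases. The rest of the body was not measured. Apc, a scaffold of the destruction complex, had an end at 0, 1.92, 2.27 and 1.67% in CRD libraries and 0, 0, 0 and 0.926% in URD libraries over 4 CpGs, with an adjusted p of 0.679. The end of Tcf7l1, a repressor of the Tcf family, had no methylated read of 3985 in CRD libraries, a limit of 0.0753%, and was at 0.0619 ± 0.0718% in URD libraries. Tcf7 and Tcf7l2 were at 0.151 ± 0.104 and 0% in CRD libraries and 0.149 ± 0.0505 and 0.185 ± 0.37% in URD libraries.

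Bodies of these regulators averaged 20.8 ± 0.501% in CRD libraries and 20.9 ± 0.269% in URD libraries over 8 genes. Lef1, Axin1, Apc and Tcf7l1 were at 34.4 ± 0.606, 34.5 ± 0.98, 31.3 ± 0.888 and 30.1 ± 2.09% in CRD libraries and 34.4 ± 0.349, 34.1 ± 0.866, 32.6 ± 1.04 and 29.3 ± 1.62% in URD libraries. These means joined unmethylated and methylated stretches within 1 gene. In Lef1, which activates target genes with beta-catenin, 9 tiles ran from 0, with a limit of 0.109% at chr3:131112001-131113000, to 94.4% at chr3:131184001-131185000 over the 8 libraries. In Axin2, a target gene of the pathway that feeds back on it, the window at the annotated start had 0% in all 4 CRD libraries and 0.0323 ± 0.0646% in URD libraries, and tiles further in reached 96.1 ± 1.32% in CRD libraries and 94.3 ± 2.18% in URD libraries at chr11:108942001-108943000.

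The Lef1 tile chr3:131135001-131136000 ranked second by p. It was at 63, 64.7, 70.8 and 67.7% in CRD libraries 1 to 4, against 69.9, 71.8, 68.2 and 70.4% in URD libraries 1 to 4. CRD library 3 lay among the URD libraries. With every CpG weighted equally the difference was -3.53 points, with an exact permutation p of 0.143. With pooled reads, as the model takes them, it was -6.19 points, with an adjusted p of 0.739. Without CRD library 1 the equally weighted difference was -2.35 points. In Axin2, the tile chr11:108923001-108924000 had 0 methylated of 655 reads in CRD libraries, a limit of 0.458%, and was at 0.794, 0.45, 0 and 0.833% in URD libraries (adjusted p = 0.773). The Tcf7l1 tile chr6:72788001-72789000 likewise had no methylated read in CRD libraries, a limit of 0.129%, and was at 0, 0, 0.303 and 0.455% in URD libraries (adjusted p = 0.772). Its difference of -0.189 points was -0.101 points without URD library 4.

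Of the 9 bodies with an unadjusted p under 0.05, the 5 of smallest p were Axin2, Apc, Sfrp1, Znrf3 and Dkk3. The model pools the reads of a body, and the differences of these 5 were larger with pooled reads than with CpGs weighted equally. Pooled reads gave Apc at 28.5, 26.9, 36.6 and 42.9% in CRD libraries 1 to 4, against 50.3, 51.1, 58.7 and 39% in URD libraries 1 to 4, a difference of -16.1 points (adjusted p = 0.249). With each of its 6 CpGs weighted equally the difference was -1.26 points, with an exact permutation p of 0.171. Apc has 2 body CpGs above 90% and 4 near 0, and the methylated pair took 30.4, 29.6, 37.6 and 45.6% of the reads in CRD libraries, against 50.3, 53, 58.7 and 41.7% in URD libraries. CRD libraries 1 to 3 thus had a smaller share of reads on the methylated pair than any URD library.

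The same 2 values were -4.46 points pooled and -0.113 points by equal weight for Axin2 (adjusted p = 0.145, exact permutation p = 0.657). For Znrf3 they were -3.83 and -0.114 points (adjusted p = 0.33, exact permutation p = 0.771), and for Dkk3 -4.32 and -0.254 points (adjusted p = 0.379, exact permutation p = 0.629). Sfrp1 kept more of its difference, at -7.53 points pooled and -1.7 points by equal weight (exact permutation p = 0.0286). Its body includes the CpGs of the Sfrp1 tile described above. With every CpG weighted equally and limma in place of the logistic model, 2 of the 46 bodies had an unadjusted p under 0.05, against 5.09% of all bodies, and none was called. This changed both the weighting and the test, and limma on pooled reads gave 3 of the 46.

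**Figure D5:**
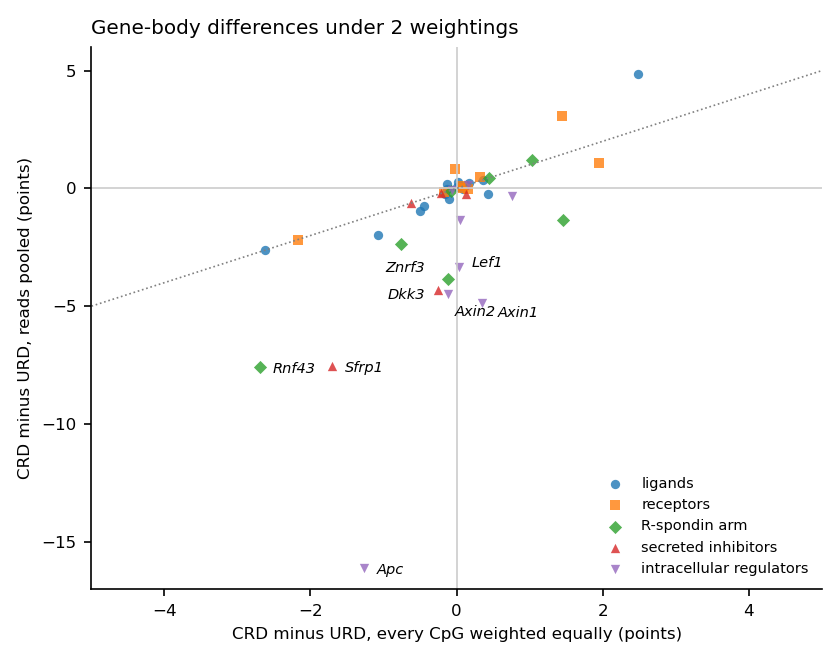
Difference in gene-body methylation between diets, CRD minus URD in percentage points, for the 46 Wnt pathway genes with a body, with every CpG weighted equally (horizontal axis) and with reads pooled over the body (vertical axis). Symbols mark the 5 roles and the dotted line marks equal values; Apc, at -1.26 and -16.1 points, and several other genes lie far below that line.

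Single CpGs carry the counting error of their few reads, and 9 of the 1018 tested (0.884%) did not overlap between the diets, against 1.8% of all CpGs. Of the 5 with the smallest p, 3 did not overlap. In Tcf7l2, a Tcf factor, the CpG chr19:55896683 was at 52.2, 57.1, 50 and 56.2% in CRD libraries and 78.6, 74.3, 70 and 69.2% in URD libraries, a difference of -19.1 points over 10 to 35 reads. In Lgr6, the CpG chr1:135005801 was at 62.8, 64, 51.2 and 66.7% in CRD libraries and 47.3, 47.4, 36 and 43.2% in URD libraries, 17.7 points higher in CRD libraries. In Fzd5, the CpG chr1:64735969 was at 2.13, 4.76, 0 and 4.55% in CRD libraries and 12.5, 14, 18.8 and 7.5% in URD libraries. These 3 CpGs separated the diets completely, in either direction, but each had an adjusted p of 0.622.

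The tiles around these CpGs did not repeat the separation. The Tcf7l2 tile chr19:55896001-55897000 was at 51.4 ± 3.6% in CRD libraries and 56.8 ± 3.27% in URD libraries (adjusted p = 0.773), and the Lgr6 tile chr1:135005001-135006000 at 43.6 ± 4.18% in CRD libraries and 38 ± 10% in URD libraries (adjusted p = 0.773). The CpG of smallest p was base 227 of the inner Wnt5b start printed above, chr6:119449409, at 0 in every CRD library, where 146 reads allow up to 2.05%, and at 5.56, 0, 5.88 and 3.92% in URD libraries (adjusted p = 0.622). In Lgr5, the CpG chr10:115556517 was at 17, 0, 0 and 0% in CRD libraries and 2.63, 0, 0 and 0% in URD libraries, so its difference of 3.59 points rested on CRD library 1.

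A further 66 genes of the pathway were listed beside the members, of which 63 were in the gene table: ligand secretion and other ligand partners, Dishevelled and the destruction complex, nuclear partners, planar polarity genes and targets. None of the 45 gene ends or 48 bodies tested was called by the logistic model, and 4 ends and 7 bodies had an unadjusted p under 0.05, where 6.95% of all ends and 11.1% of all bodies did. Their ends averaged 2.43 ± 0.0194% in CRD libraries and 2.42 ± 0.0393% in URD libraries, and their bodies 24.5 ± 0.442% in CRD libraries and 24.5 ± 0.0662% in URD libraries. Nuclear partners had the lowest ends, at 0.0486 ± 0.0213% in CRD libraries and 0.104 ± 0.0627% in URD libraries. The end of Celsr1, a cadherin of planar polarity, was at 0 in all 4 CRD libraries and at 0.573, 0.0938, 0.113 and 0.312% in URD libraries, with an adjusted p of 0.6. That of Celsr2, of the same family, ran the other way, at 0.133, 0.667, 0.256 and 0% in CRD libraries and at 0 in all 4 URD libraries, with an adjusted p of 0.679.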

How the data were processed

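DNA methylation was measured by RRBS in 8 libraries, from 20 ng of DNA each and 100-base paired-end reads per the labels' protocols. The submitters' processing notes name the build mm10 and the tools Bismark 0.13.1, methylKit, Trim Galore 0.3.3, FastQC and cutadapt. The deposited files give, for each CpG cytosine, a read count and the percent methylated and unmethylated, as the authors made them. Depth per library ran from 16045992 to 37305007 reads summed over these cytosines. Limits given for 0 methylated reads (3 reads of the total) cover counting error only, since PCR copies were not told apart. They also count a read once for each CpG it spans, so they are too low where CpGs share reads.

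Methylated reads were computed as count times percent, rounded, and both strands of a CpG were joined. CpGs on autosomes were kept where each of the 8 libraries had 10 reads or more, and units needed at least 3 CpGs. Each unit was tested by logistic regression on diet over 4 CRD and 4 URD libraries, with a likelihood-ratio F test, a dispersion moderated across units and not under 1, and Benjamini-Hochberg adjustment over all units of that kind (Python 3.11.15, numpy 2.4.6, scipy 1.17.1, pandas 2.3.3). The model was tested on simulated data with large changes in tiles of intermediate level, and changes at levels near 0 were not simulated. Alternatives used limma 3.58.1 and edgeR 4.0.16 (R 4.3.3), other coverage minimums, tile sizes and windows, and left out libraries. Printed levels weight CpGs equally, whereas the model pools reads. The two-sided exact permutation test of library levels enumerates 70 splits, with a smallest p of 0.0286.

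Gene bounds came from a RefSeq table of GRCm38.p6, the same assembly as mm10, which gives no exons, so exon or intron is not stated. The members and lists were chosen with earlier results of these data known. Values are printed for the 10 tiles, 5 gene ends, 5 bodies and 5 CpGs of smallest p, the 2 highest ends and bodies of each role, and a list of kidney Wnt genes; other genes are given by range or to complete a role.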

Additional observations from a re-analysis of the deposited data

Results flagged for a closer look

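Of 74 groups of 4 libraries checked for a library far from the other 3, 5 were singled out. Chance alone gives about 1 in 20 for normally spread values, a rate that does not hold for levels near 0. A group with 3 libraries at 0 and 1 above 0 is always singled out, as at the Lgr5 CpG below. The mean ligand body of CRD library 3 was at 7.2%, below the 7.72 to 7.8% of the other CRD libraries. The mean secreted-inhibitor body of URD library 4 was at 9.57%, above the 8.93 to 8.98% of the other URD libraries. The Znrf3 gene end of URD library 3 was at 0.443%, above the 0 to 0.0633% of the other URD libraries. The Lgr5 CpG at chr10:115556517 was at 17% in CRD library 1 and at 2.63% in URD library 1, and at 0 in the other libraries of both diets.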

How the results depend on the processing

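The count of called tiles, gene ends, bodies and CpGs near the 56 genes was 0 under every alternative setting listed in the methods, and under the equal-CpG fits chosen after seeing the data. The replicate numbers did not pair the libraries, with correlations of same-numbered libraries between -0.117 and 0.0218, and the fit with a replicate block also gave 0 calls. Differences between diets in class levels, CRD minus URD, moved with the weighting of reads. In bodies the read-weighted level gave -1.84 points for the R-spondin arm, -2.17 for secreted inhibitors, -2.59 for intracellular regulators and -0.921 for all members. Pooling the reads of each gene, chosen after seeing the data, gave -1.94, -2.59, -3.79 and -1.19 points in the same order. At gene ends the receptors moved to -0.395 points with pooled reads and the intracellular regulators to -0.0901 points with read weights. A minimum of 20 reads per CpG gave -0.297 points for inhibitor ends over 6 genes and -0.0694 points for the intracellular end of 1 gene, where fewer genes were measured. Single differences changed sign in the Fzd9 tile with at least 20 reads (0.031 points), the Fzd2 tile without CRD libraries 1 and 2 (-0.0565), the Axin2 body with at least 5 reads (0.278) and the Lgr5 CpG without CRD libraries 1 and 2 (-0.658). The causes were not tested. Leaving out 1 library at a time gave -0.227 to 0.0573 points for the Axin2 body, -0.313 to 0.14 for Znrf3, -0.502 to 0.0446 for Dkk3, -1.22 to -0.0858 for the Lrp5 gene end and -0.658 to 5 for the Lgr5 CpG, with the last negative without CRD library 1. The sign turned without URD library 2 for Axin2, without CRD library 3 for Znrf3, and without CRD library 4 or URD library 4 for Dkk3. Levels near 0 at gene ends rest on few methylated reads, such as 6 of 2261 in CRD libraries at Wnt11, and the smallest difference that could have been called there was not determined.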
